A study of Homo sapiens with 4 samples.

Results

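The genes described here are the 10 core components of the TRAIL and FAS death receptor pathway: the ligand TNFSF10 (TRAIL), the death receptors TNFRSF10A, TNFRSF10B and FAS, the decoy receptors TNFRSF10C and TNFRSF10D, the adaptor FADD, the initiator caspases CASP8 and CASP10, and the caspase-8 regulator CFLAR (c-FLIP). They were taken by symbol from a deposited table of 28278 genes, and all 10 were found. The table covers 4 RNA sequencing libraries of A549, an established human lung adenocarcinoma line. In 2 libraries the cells had been stably infected with a lentivirus carrying a control construct (genotype label WT), and in 2 with a lentivirus carrying CBX7 (genotype label CBX7 overexpression). Both groups are therefore transduced lines, no untransduced cells are analysed here, and the labels give no promoter, clone or number of integrations. CBX7 is a chromobox subunit of Polycomb repressive complex 1. The series title names metastasis of lung adenocarcinoma and repression of SOCS3 as the question. Nothing in the labels states that replicates were separate cultures, so the tests see only how far these libraries differ, a spread that may be technical.

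TRAIL and the FAS ligand are trimeric cytokines that kill cells from outside. When they bind a death receptor, its intracellular death domain recruits FADD, and FADD in turn recruits procaspase-8 and procaspase-10 into a complex in which the caspases cut and activate each other. CFLAR resembles caspase-8 but lacks its protease activity, and competes for a place in that complex. Decoy receptors bind TRAIL without a working death domain. Natural killer and T cells use these ligands against tumour cells, and in epithelial cells TNFSF10 is a classic interferon-induced gene.

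Depth ranged from 69877585 to 90765502 counts per library. As a check of the labels, CBX7 had counts of 689 and 596 (control) and of 1783 and 1550 (overexpression). Levels are in CPM, the usual depth-normalised read count, here divided by the library total and a TMM factor that corrects for composition. SOCS3 stood at 43.8 and 40.8 CPM in controls and 11.1 and 8.23 CPM with CBX7. A floor of 3 counts lay between 0.0320 and 0.0440 CPM, depending on the library, and covers counting error only. Of the lung adenocarcinoma epithelium markers, KRT7, KRT8 and KRT18 were abundant (at least 1325 CPM on average in each group), EPCAM was at 0.919 and 1.60 CPM in the control and CBX7 groups, and KRT19 at 0.278 and 0.176 CPM. Of 5 leukocyte markers, CD3E was at 0 counts everywhere, PTPRC and LYZ had at most 9 counts, and CD68, a lysosomal protein, was at 162 CPM in controls and 23.6 CPM with CBX7. The part of these marker levels in the results was not tested. Summed endothelial markers lay between 0.836 and 3.68 CPM, with CDH5 rising in the CBX7 libraries, and summed fibroblast markers between 5.55 and 8.91 CPM. In these bulk libraries fewer cells expressing a gene and less RNA per cell cannot be told apart.

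Death receptor genes and the complex they build were mostly lower with CBX7. Of the 10 genes, all passed the filter on low counts, 7 fell, 0 rose and 3 did not pass the test (edgeR quasi-likelihood, adjusted p under 0.05 over all genes tested). The background share of lower calls was 13.9% of the 17271 genes tested, and of higher calls 10.5%. The 7 that fell were FAS, CFLAR, TNFRSF10B, CASP10, CASP8, TNFRSF10A and FADD, with falls of 3.45-fold to 1.28-fold. The remaining 3 were TNFSF10, whose mean was 77.9 CPM in controls and 1.23 CPM with CBX7, and the decoys TNFRSF10C and TNFRSF10D. The median log2 fold change over the 10 was -0.86, against -0.000151 over all genes tested. In CPM, 8 of the 10 had both CBX7 libraries below both control libraries (background 31.9%), TNFRSF10D had both above (background 30.8%), and TNFRSF10C overlapped. Groups that do not overlap, in either direction, made up 62.8% of all genes tested, so a lack of overlap alone sets no gene apart.

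**Figure D1:**
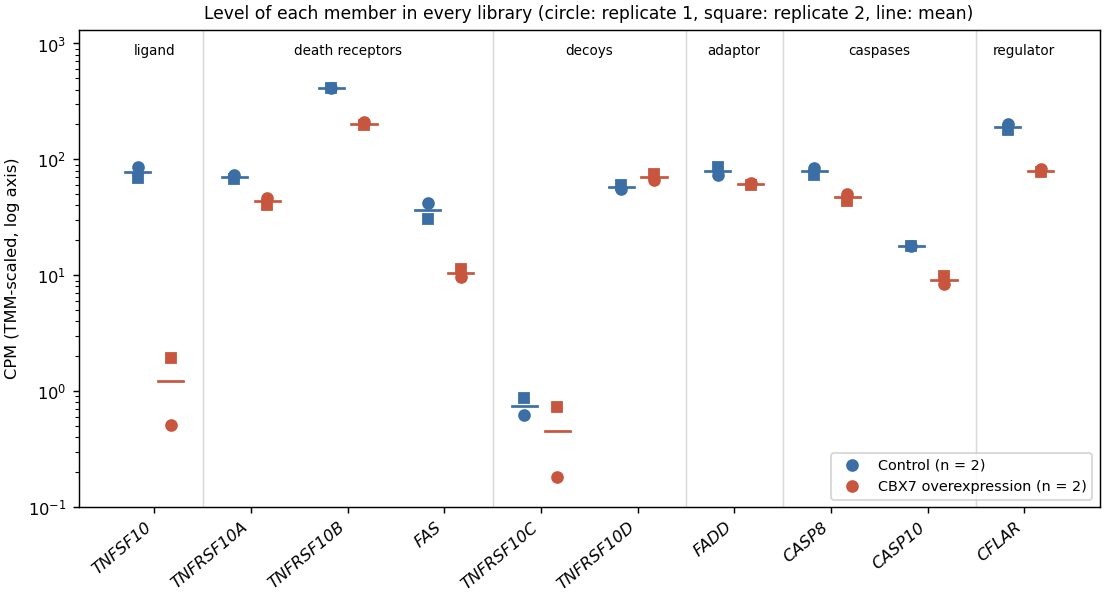
CPM on a log axis for each of the 10 genes in each library, with controls in blue, CBX7 overexpression in red, and a line at each group mean (n = 2). TNFSF10 shows the widest gap, from 69.5 CPM or more in controls to 1.94 CPM or less with CBX7, and TNFRSF10D alone lies higher in both CBX7 libraries.

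Promoter sequence was looked at for the members that RefSeq promoter windows (GRCh38.p14, 300 bases reaching 250 before and 50 after an annotated start site, of which a gene can have several) cover among the sequences used here: TNFSF10 (1 window), CASP8 (3), CFLAR (4), FAS (3) and FADD (1). Matches on both strands are given for the interferon response core (a GAAA repeat with a gap of 2 bases), the STAT core TTCNNNGAA, the GC box GGGCGG, and the NF-kB site by consensus. Bases are numbered from 1 at the start site of the window, and the base before it is -1. For TNFSF10, FADD and the first CASP8 window that site is the first base of the gene in RefSeq. The CFLAR and FAS windows belong to start sites inside the gene, downstream of the gene boundaries given with the values. The interferon response core is bound by interferon regulatory factors, and it was found in TNFSF10 and in the first CASP8 window. Among 27305 genes with a window, 4.38% held it. In TNFSF10 it lies on the opposite strand at bases -187 to -178, and in CASP8, also on the opposite strand, at bases -3 to 7. The first CFLAR window held an NF-kB site at -97 to -88 that overlaps its GC box at -101 to -96, and 13.3% of genes held such a site. The stretches below show those matches in capitals. Each runs from 250 bases before the window's start site to 20 bases from it on, 5′ to 3′ on the gene's strand. Capitals mark the interferon response core in TNFSF10 and CASP8 and the NF-kB site in CFLAR, and no other match. These windows were chosen for print with the matches known, and no FAS or FADD window is printed.
TNFSF10 chr3:172523411-172523680, minus strand: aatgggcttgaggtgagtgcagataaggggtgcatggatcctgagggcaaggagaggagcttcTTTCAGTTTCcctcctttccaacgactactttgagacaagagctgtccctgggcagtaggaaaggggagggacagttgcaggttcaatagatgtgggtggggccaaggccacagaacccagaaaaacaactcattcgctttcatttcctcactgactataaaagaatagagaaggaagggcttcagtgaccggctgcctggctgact
CASP8 chr2:201233213-201233482, plus strand: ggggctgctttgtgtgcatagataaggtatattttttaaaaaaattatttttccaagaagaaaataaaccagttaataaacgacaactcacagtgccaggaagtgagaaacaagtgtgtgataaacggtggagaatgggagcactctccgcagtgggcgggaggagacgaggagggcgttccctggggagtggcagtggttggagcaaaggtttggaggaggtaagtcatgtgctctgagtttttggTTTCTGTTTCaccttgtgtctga
CFLAR chr2:201118466-201118735, plus strand: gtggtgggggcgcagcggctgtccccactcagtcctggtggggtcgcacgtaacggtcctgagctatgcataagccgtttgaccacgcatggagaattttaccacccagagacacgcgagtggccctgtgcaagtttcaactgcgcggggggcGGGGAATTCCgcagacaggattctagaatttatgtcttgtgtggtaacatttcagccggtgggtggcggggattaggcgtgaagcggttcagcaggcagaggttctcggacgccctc
The 3 FAS windows held no interferon response core. The third held an NF-kB site at -157 to -148 (13.3% of genes). The first CASP8 window held a STAT core at -200 to -192 (9.38% of genes). The FADD window held a pair of GC boxes. GC boxes also lay in all 3 FAS windows, in the first CASP8 window and in the first and last CFLAR windows. The TNFSF10 window held none, and 48.3% of genes held at least 1. A match describes letters and not a bound site, and a window without one says nothing about the factor.

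The ligand TNFSF10 (chromosome 3, 172505508 to 172523430, GRCh38) was counted 7434 and 4743 times in controls, against 48 and 175 times with CBX7. In CPM these were 86.3 and 69.5 against 0.513 and 1.94. The groups lay far apart, with the lower control 35.8-fold above the higher CBX7 library, while the SD of the CBX7 libraries was nearly as large as their mean. The means were 77.9 ± 11.9 and 1.23 ± 1.01 CPM (SD, n = 2), and the fitted log2 fold change was -6.00 (SE 0.836, 95% interval -9.23 to -2.76). Ranked from the lowest, this change was number 157 of 17271. TNFSF10 nevertheless missed the threshold in edgeR (adjusted p = 0.0539). The robust edgeR fit gave it 2.25 degrees of freedom, against 13.6 for each of the other members. DESeq2 (adjusted p = 3.30e-11), limma-voom (3.07e-08) and edgeR without robust estimation (4.89e-06, chosen after seeing the data) each called it lower, as did a stricter count filter (0.0477). The other edgeR fits on all libraries did not call it. These used a replicate block (adjusted p = 0.190), no filter (0.0746), DESeq2 size factors (0.0528) or library totals (0.0505). With 1 library left out, TNFSF10 did not pass without either control library. It passed without either CBX7 library (log2 fold change -5.32 without CBX7 library 1 and -7.23 without CBX7 library 2). Those fits no longer hold the spread between the CBX7 libraries, and the remaining one is assumed to vary like the controls and other genes.

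All 3 receptors with a working death domain fell. FAS (chromosome 10, 88964050 to 89017059), the receptor for FAS ligand, had 3623 and 2095 counts in controls and 905 and 1030 with CBX7. Its CPM values were 42.1 and 30.7 against 9.67 and 11.4, so that the groups did not overlap although the controls were spread more widely. The 3.45-fold fall corresponds to -1.79 on the log2 scale (SE 0.165, adjusted p = 2.48e-06). TNFRSF10B (DR5, chromosome 8, 23020133 to 23069031), the more abundant TRAIL death receptor, went from 413 and 411 CPM to 208 and 198 CPM. Replicates were close in both groups, and the 2.03-fold fall was -1.02 on the log2 scale (SE 0.0923, adjusted p = 2.05e-06). TNFRSF10A (DR4, chromosome 8, 23190452 to 23225102) went from 73.7 and 67.7 CPM to 46.6 and 40.4 CPM. Its fall was smaller, at -0.70 on the log2 scale (SE 0.116, adjusted p = 0.000553). For these 3 receptors every alternative kept the direction and the call.

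The antisense gene FAS-AS1, counted apart from FAS, had 93 and 14 counts in controls against 0 and 5 with CBX7 (log2 fold change -4.48, adjusted p = 0.0279). Whether the authors' counting used strand is not given in the sources used here, so reads of FAS and FAS-AS1 cannot be told apart with certainty. FAS itself had at least 905 counts in every library, many times those of FAS-AS1. FASLG, the gene of the FAS ligand, had 0 counts in all 4 libraries, below a floor of 3 counts in each.

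Neither decoy receptor was called. TNFRSF10D (DcR2, chromosome 8, 23135588 to 23164027), whose death domain is truncated, had 55.9 and 59.5 CPM in controls and 66.9 and 74.3 CPM with CBX7. Both CBX7 libraries lay above both controls, but the log2 fold change of 0.29 (SE 0.111, 95% interval 0.0531 to 0.528) missed the threshold (adjusted p = 0.0717). It passed with library totals in place of TMM (0.0287), with DESeq2 (0.0435) and with replicate number as a block (0.0471), and its adjusted p ran to 0.475 without CBX7 library 2. TNFRSF10C (DcR1, chromosome 8, 23102921 to 23117445) is anchored to the membrane by a lipid and has no intracellular part. It had the fewest counts of the members, 54 and 59 in controls and 17 and 66 with CBX7. Its groups overlapped, and the interval of its log2 fold change, -2.27 to 0.858, allows a change in either direction (adjusted p = 0.544). Without CBX7 library 1 its log2 fold change was -0.02, and without CBX7 library 2 it was -2.02. The 4 TRAIL receptors are related in sequence, and how the authors counted reads shared between them is not given, so part of any receptor's counts could belong to another.

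**Figure D2:**
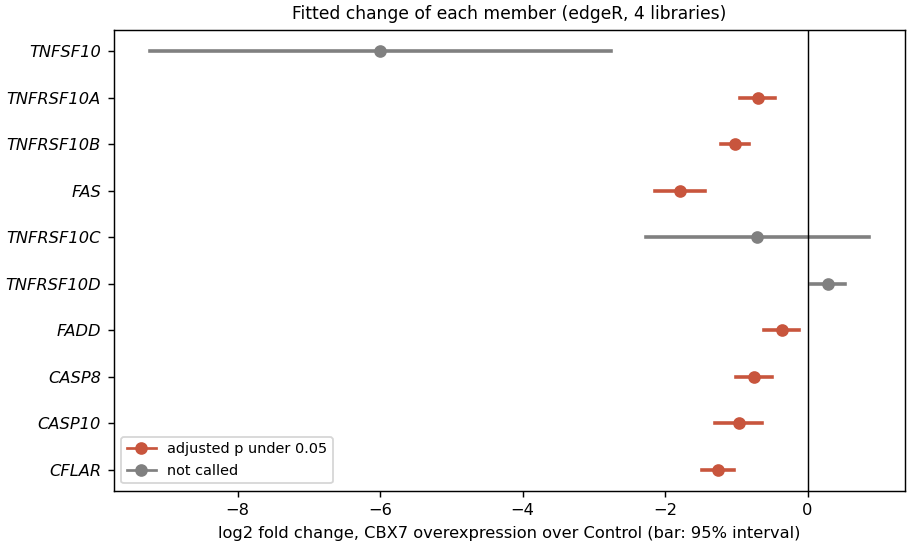
Fitted log2 fold change of each member, CBX7 overexpression over control, with 95% intervals from edgeR. Red marks the 7 genes called lower, and the grey intervals are those of TNFSF10 (-9.23 to -2.76), TNFRSF10C (-2.27 to 0.858) and TNFRSF10D (0.0531 to 0.528).

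Inside the cell the adaptor moved least of the called members. FADD (chromosome 11, 70203296 to 70207390), which links receptor to caspase, went from 72.9 and 85.2 CPM to 62.7 and 60.6 CPM. The groups did not overlap, yet the gap between them was smaller than the gap between the controls. Its log2 fold change of -0.36 (SE 0.114, adjusted p = 0.0347) lost its call with library totals in place of TMM (adjusted p = 0.0775), without control library 2 (0.159, log2 fold change -0.23), without CBX7 library 1 (0.125) and without CBX7 library 2 (0.235). Over the 12 alternatives its adjusted p ranged from 0.0100 to 0.235.

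Both initiator caspases fell. CASP8 (chromosome 2, 201233463 to 201287711) went from 84.4 and 73.2 CPM to 49.7 and 44.0 CPM, or -0.75 in log2 (SE 0.118, adjusted p = 0.000380). CASP10 (chromosome 2, 201183141 to 201229406), its close relative, went from 17.8 and 17.9 CPM to 8.48 and 9.79 CPM, or -0.97 in log2 (SE 0.155, adjusted p = 0.000448). Within a library the count of CASP10 over that of CASP8 was 0.211 and 0.244 in controls and 0.171 and 0.222 with CBX7. These ratios overlapped, so no difference between the caspases was seen beyond the spread of the libraries.

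CFLAR (chromosome 2, 201116164 to 201176687), the brake on caspase-8, went from 202 and 180 CPM to 82.7 and 77.2 CPM. The 2.39-fold fall (log2 fold change -1.25, SE 0.106, adjusted p = 9.98e-07) was larger than that of CASP8. The ratio of CFLAR to CASP8 counts was 2.39 and 2.45 in controls and 1.66 and 1.75 with CBX7, lower in both CBX7 libraries. Its means of 2.42 ± 0.0458 and 1.71 ± 0.0633 (SD, n = 2) differ 1.42-fold. A ratio within a library does not depend on its depth, and the differences between groups in this and the other ratios were not tested. CFLAR is spliced into long and short forms that a gene-level count does not separate. CFLAR-AS1, an antisense gene counted apart, had 45, 90, 25 and 16 counts in the same order of libraries.

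Among TRAIL receptors, the count of TNFRSF10D over that of TNFRSF10B was 0.135 and 0.145 in controls and 0.321 and 0.375 with CBX7, a 2.49-fold higher mean ratio. The ratio of TNFRSF10A to TNFRSF10B was 0.178 and 0.165 in controls and 0.224 and 0.204 with CBX7, a 1.25-fold higher mean. Neither pair of ratios overlapped between groups. In CPM 62.8% of all genes tested, taken singly, did not overlap either. The share for ratios between genes was not worked out. A lack of overlap alone therefore sets none of these ratios apart, that of CFLAR to CASP8 included. For TNFRSF10C over TNFRSF10B the ratios did overlap, at 0.00152 and 0.00210 against 0.000871 and 0.00370.

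**Figure D3:**
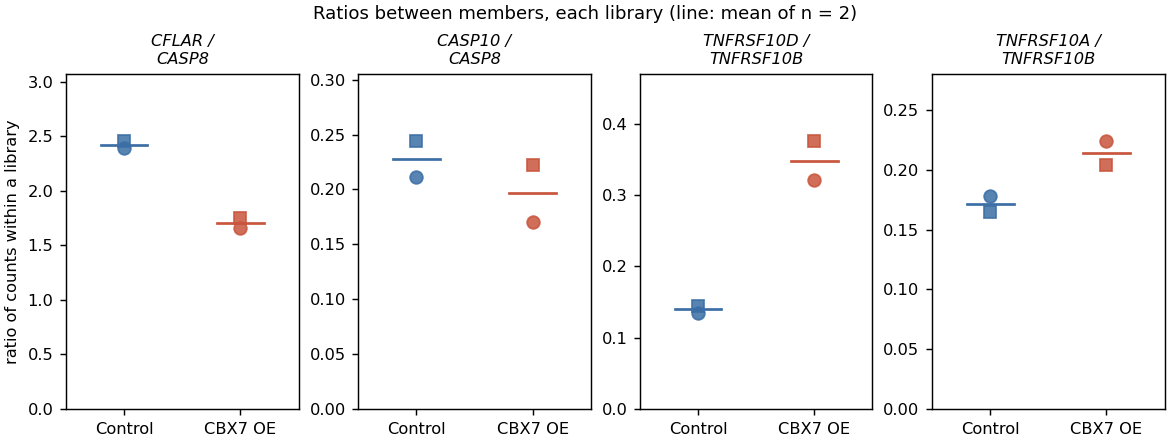
Ratios of counts within each library, on axes that start at 0, with a line at each mean of n = 2. CFLAR over CASP8 lies lower and TNFRSF10D over TNFRSF10B higher in both CBX7 libraries, while CASP10 over CASP8 overlaps.

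Per kilobase of transcript, using the median length of coding transcripts in GENCODE release 29, the order of levels differed between groups. In controls TNFRSF10B was first at 140.5 ± 0.556 CPM per kilobase, followed by CFLAR at 115.8 ± 9.45. TNFSF10 (43.6 ± 6.65), FADD (42.9 ± 4.71), CASP8 (41.4 ± 4.15) and TNFRSF10A (38.3 ± 2.28) came next and did not differ from their neighbours beyond their spread. FAS (26.3 ± 5.81), TNFRSF10D (16.3 ± 0.713), CASP10 (8.61 ± 0.0105) and TNFRSF10C (0.434 ± 0.0979) closed the order. With CBX7, TNFRSF10B (69.2 ± 2.54), CFLAR (48.6 ± 2.39) and FADD (33.5 ± 0.822) led, and CASP8 (24.6 ± 2.12), TNFRSF10A (23.6 ± 2.38) and TNFRSF10D (19.9 ± 1.47) followed, each closer to the next than the sum of their SDs. FAS (7.62 ± 0.897) and CASP10 (4.41 ± 0.447) came after them, and TNFSF10 stood at 0.687 ± 0.565 CPM per kilobase, with TNFRSF10C (0.266 ± 0.227) as its overlapping neighbour. The place of CFLAR depends on the length used, since its merged exons span 20.64 kilobases and its median transcript 1.646 kilobases. Other places depend on it too. Per kilobase of merged exons, CASP8 stood at 20.0 CPM in controls, below FADD (42.96), TNFSF10 (39.96) and TNFRSF10A (26.1), and TNFRSF10D (16.3) passed FAS (14.1). With CBX7, TNFRSF10D (19.94) passed TNFRSF10A (16.05) and CASP8 (11.9).

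Position in the genome separates the members into a pair of clusters and 3 single genes. CFLAR, CASP10 and CASP8 lie side by side on chromosome 2 within 171.5 kilobases, with gaps of 6.45 and 4.06 kilobases, and all 3 fell. The nearest tested coding genes outside were NDUFB3 (log2 fold change 0.20, adjusted p = 0.284) and FLACC1 (-0.92, SE 1.13, adjusted p = 0.624). FLACC1 had only 6 to 21 counts a library, so the direction of its change is uncertain. The 4 TRAIL receptors lie on chromosome 8 within 205.0 kilobases in the order TNFRSF10B, TNFRSF10C, TNFRSF10D, TNFRSF10A. The outer pair fell, and TNFRSF10D between them had the positive log2 fold change given above. The flanking genes RHOBTB2 (0.21, adjusted p = 0.343) and CHMP7 (0.06, adjusted p = 0.763) were not called. The flanking genes were looked up after the members' values were seen.

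Genes with the profile most like each called member were sought over the 4 libraries, by the root mean square difference of centred log2 CPM, among 13006 genes. The nearest was GTF2B for TNFRSF10A (0.0169), NBPF10 for TNFRSF10B (0.0105), C7orf61 for FAS (0.0121), TNXB for FADD (0.00354), FRMD4B for CASP8 (0.0214), ID3 for CASP10 (0.0181) and CHD2 for CFLAR (0.0120). TNXB itself was not called (adjusted p = 0.468). Over only 4 libraries, close matches are easily found among so many genes, so a match shows no link between a gene and a member.

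Around the core members, the adaptors and ubiquitin regulators of the receptor complexes made up a list with 24 tested genes. Of these, 14 fell, 0 rose and 10 were not called, a share of 58.3% called against 24.4% of all genes (13.9% lower), with a median log2 fold change of -0.63. TNFAIP3, a ubiquitin-editing brake on NF-kB (log2 fold change -4.21, adjusted p = 9.27e-12), TRAF1, a receptor-associated adaptor (-3.41, 4.78e-09), BIRC3, an inhibitor of apoptosis that ubiquitinates RIPK1 (-2.50, 5.09e-09), and MLKL, the effector of necroptosis (-1.92, 1.94e-08), had the smallest p. MLKL stood at 77.4 ± 1.34 CPM in controls and 20.5 ± 0.426 with CBX7. RIPK3, the kinase that activates MLKL, had 9 counts in CBX7 library 2 and 0 in the other 3, and was not tested. RNF31 and RBCK1, parts of the linear ubiquitin ligase, fell (log2 fold changes -0.99 and -1.32), while its remaining part SHARPIN was at 33.3 ± 5.89 and 43.2 ± 1.89 CPM and was not called (adjusted p = 0.0552). SHARPIN was called higher under 7 of 12 alternatives, with adjusted p from 0.0106 to 0.285, and RNF31, RBCK1 and SHARPIN were named after their values were seen.

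A further list held other receptors, ligands and soluble decoys of the TNF family. Of 11 tested, 2 fell, 1 rose and 8 were not called (median log2 fold change -0.26). The share called, 27.3%, was near the 24.4% of all genes. TNFRSF1B, the second TNF receptor, went from 280 and 266 counts to 7 and 8 (log2 fold change -5.43, adjusted p = 9.43e-07). It has no death domain, and the listed receptors that have one were not called. TNF, the founding ligand of the family, had 92 and 53 counts in controls and none with CBX7 (0 and 0), which makes it at least 28.3-fold lower when a floor of 3 counts per library is assumed (adjusted p = 0.000351). The deposited values are estimates, and a failed estimate would void that bound. TNFRSF6B, a soluble decoy for FAS ligand, rose from 12 and 14 counts to 46 and 109 (log2 fold change 2.30, adjusted p = 0.0435). It lost that call under 6 of 11 alternatives, including without control library 1 (adjusted p = 0.134), control library 2 (0.0788) or CBX7 library 2 (0.511), with limma-voom (0.0714) and with the replicate block (0.0704). It overlaps the read-through gene RTEL1-TNFRSF6B, so its count is uncertain.

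Downstream of the receptors, most genes were not called. Of 16 tested executioner caspases and mitochondrial factors, 2 fell, 2 rose and 12 were not called, a share of 25.0% called against 24.4% of all genes, with a median of 0.00259. CASP6, an effector caspase, rose from 13.8 ± 2.12 to 23.3 ± 1.36 CPM (0.76 in log2, adjusted p = 0.00229). BAK1, a pore former of the mitochondrial membrane, fell (-0.47, adjusted p = 0.0161), and DFFA, the inhibitor of the apoptotic DNase, rose (0.35, adjusted p = 0.0398). BAK1 lost its call without control library 2 (0.0622), CBX7 library 1 (0.106) or CBX7 library 2 (0.113), and DFFA without any 1 of the 4 libraries (0.0658 to 0.394).

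Transcription factors known to act on the members were listed too. Of 10 tested, 7 fell, 0 rose and 3 were not called (median log2 fold change -1.81), beside background shares of 13.9% lower and 24.4% called over all genes. The list was written with earlier results of these data known. STAT2, which carries interferon signals, had a log2 fold change of -3.57, IRF1, which binds the interferon response core, -4.08, and DDIT3 (CHOP), a stress factor that acts on TNFRSF10B, -3.51, each at an adjusted p of 1.68e-10 or lower. Whether any of these factors has a part in the members' levels was not tested.

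**Figure D4:**
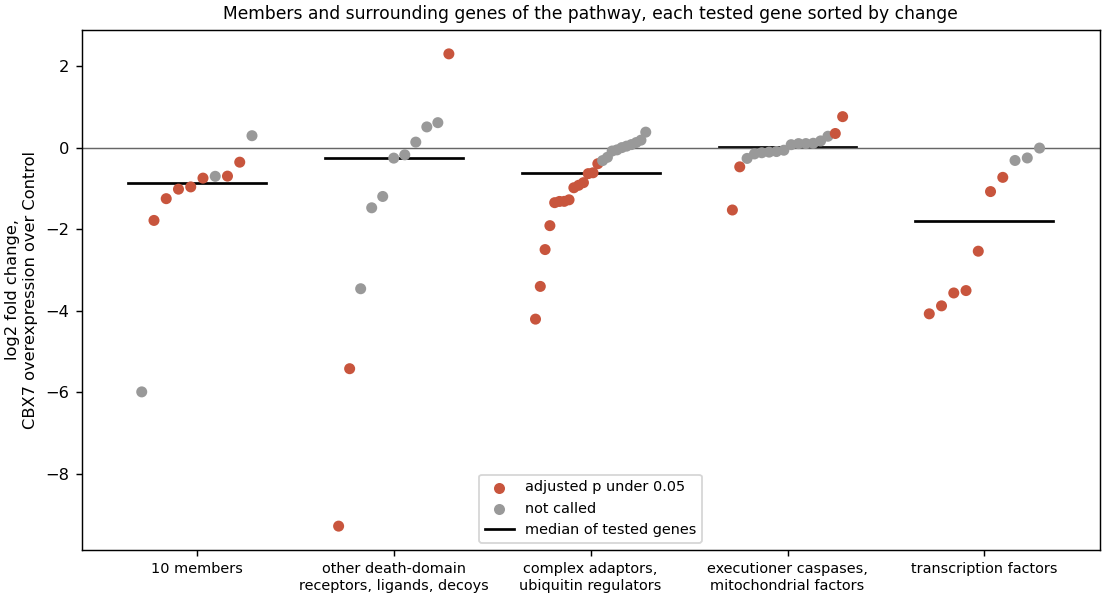
Log2 fold change of every tested gene among the 10 members and 4 surrounding lists, sorted within each, with called genes in red and the median as a black line. The medians are -0.86, -0.26, -0.63, 0.00259 and -1.81 from left to right.

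**Figure D5:**
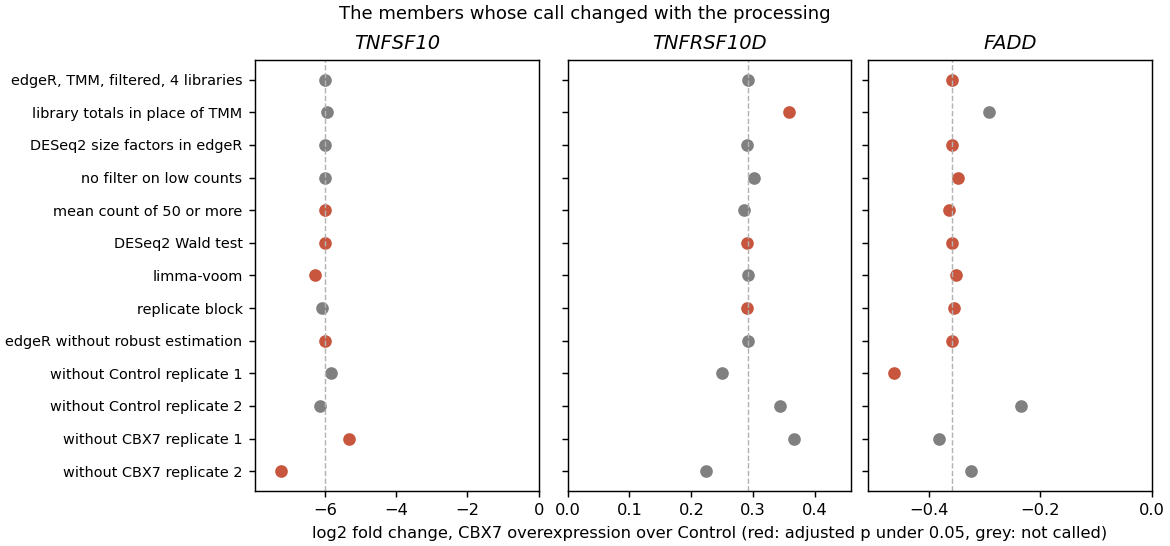
Log2 fold change of TNFSF10, TNFRSF10D and FADD under the fit reported and each alternative, red where the adjusted p was under 0.05. TNFSF10 stays between -7.23 and -5.32 whether called or not, TNFRSF10D between 0.22 and 0.37, and FADD between -0.46 and -0.23.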

How the data were processed

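RNA sequencing of 4 A549 libraries, 2 control and 2 CBX7 overexpression, was used. The authors deposited 1 table of estimated counts per gene, and the submitters' processing notes name HISAT2 2.2.1, StringTie 2.2.1, DESeq2 and build hg38 without roles. For the annotation, strandedness and handling of shared reads no source used here gives a statement. All values were whole numbers, every row had a gene name, and each column matched a sample title.

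Groups were compared with edgeR 4.0.16 in R 4.3.3 (filterByExpr, TMM, robust quasi-likelihood fit, group as the only term). P-values were adjusted by the Benjamini-Hochberg method over all tested genes, and calls were made at 0.05. The SE of a log2 fold change came from the F statistic, and fold changes are CBX7 over control. DESeq2 1.42.0, limma 3.58.1 (voom), 2 other scalings, 2 other filters, a replicate block and each library left out were alternatives. Only the edgeR fit reported was run on simulated counts, and the alternatives were not. Those counts were drawn with that fit's own estimates of spread, so they cannot show whether the estimates hold for these libraries. Likeness between genes used log2(CPM + 0.05) over genes with a mean count of 50 or more. Gene boundaries and promoter windows came from RefSeq (GRCh38.p14), the windows around annotated start sites, and 5 members had at least 1. Transcript lengths came from GENCODE release 29. The text names all members, CBX7, SOCS3, for each called member its nearest gene of the 3 most alike, and in each list up to 4 called genes with the smallest p. The members and lists were chosen with earlier results of these data known. Some list genes that the rule selects, and 1 of the motifs searched, are not reported here.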

Additional observations from a re-analysis of the deposited data

How the results depend on the processing

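All 10 members kept their direction under every alternative run, and FAS, CFLAR, TNFRSF10A, TNFRSF10B, CASP8 and CASP10 kept their call in all 12. With 1 library left out, 6 to 7 members were called lower. With library totals, which shift the median gene by 0.0667, 2486 genes were called higher and 2033 lower, against 1809 and 2399 with TMM, and 1 member (TNFRSF10D) was called higher, as with DESeq2 and with the replicate block. With 1 library left out, genes called ranged from 2729 (without CBX7 library 1) to 3924, and those higher from 1021 (without CBX7 library 1) to 1790, with 1121 without CBX7 library 2.

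At a mean count of 50 or more, 1 of 5 tested genes in the list of other receptors and ligands was called, 1 lower and 0 higher. Its higher calls numbered 2 with DESeq2, 0 with limma-voom, 0 with edgeR without robust estimation (chosen after seeing the data) and 0 to 1 with 1 library left out, when its calls ranged from 2 to 4 and its lower calls from 2 to 3. In the adaptor list SHARPIN was the 1 gene called higher with library totals, with no filter, at a mean count of 50 or more, with DESeq2, with limma-voom, with the replicate block and without control library 2 (0 to 1 over the left-out libraries). The executioner list had 1 higher call with edgeR without robust estimation, and with 1 library left out 2 to 3 calls, 1 higher in each case and 1 to 2 lower. The causes were not tested.

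The numbers 1 and 2 of the replicates are not stated to mark a shared culture. Deviations from the group mean correlated at 0.0281 between libraries of the same number, across 17271 genes. With 2 libraries a group, crossing the numbers gives the mirror value of -0.0281. The correlation therefore cannot tell whether libraries of the same number shared a culture or day. With the replicate block, 4603 genes were called, 2100 higher and 2503 lower, and 8 members, 7 lower and TNFRSF10D higher at an adjusted p of 0.0471, while TNFSF10 had 0.190. With 2 libraries a group, small changes such as those of FADD and TNFRSF10D are at the limit of what can be called, and counts under 100 such as those of TNFRSF10C leave wide intervals.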
